A study of Mus musculus with 2 samples.

Results

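The genes that build and control the nuclear complex of Notch were examined for Notch1 binding in gamma delta T cells. The set held 9 genes: Rbpj, Maml1, Maml2, Maml3, Ep300, Spen, Ctbp1, Ncor1 and Fbxw7. A Notch1 peak was assigned to a gene when it overlapped the gene body, or the 50 kb on either side of any annotated start site, by at least 1 bp. By this rule 6 of the 9 genes had a peak and 3 (Maml1, Ep300 and Fbxw7) had none, beside 31.7% of the 21938 protein-coding genes. The 6 genes shared out 11 peaks of the 5910 on nuclear chromosomes. The peaks came from 1 chromatin immunoprecipitation sequencing (ChIP-seq) library, made with the rabbit Notch1 antibody D1E11 from primary thymic cells of this lineage, taken from wild type C57BL/6 mice aged 0 to 3 days after birth. An input library from the same kind of cells, made with no antibody, is not analysed here. With 1 library there was no replicate, so no test was made, and each count is set beside the same count over all genes or all peaks.

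Notch1 is cut after its ligand binds, and its intracellular domain then moves to the nucleus, where it cannot bind DNA alone. RBPJ is the protein that binds DNA for it, at sites built around the core TGGGAA. Without Notch, RBPJ can hold co-repressors such as SPEN, CtBP1 and NCoR1 at a gene. With Notch, a Mastermind protein (MAML1, MAML2 or MAML3) closes a complex of 3 proteins on DNA and draws in the acetyltransferase p300, and FBXW7 later marks the Notch domain for degradation. In the thymus this pathway directs progenitors into the T lineage.

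The sequences below show how the 11 peaks differ in kind. The first 4 come from the peaks that held a copy of the RBPJ core, and the last comes from a peak on a tandem repeat. Each is a window of 150 bases from the peak, written 5′ to 3′ on the plus strand of mm10, and capitals mark the core on either strand (TTCCCA is the core read from the other strand).
Rbpj intron, chr5:53567400-53567549: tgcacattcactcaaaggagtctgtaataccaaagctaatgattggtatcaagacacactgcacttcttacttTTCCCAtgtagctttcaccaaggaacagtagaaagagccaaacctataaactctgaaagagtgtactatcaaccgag
Maml3 intron 1 near the start, chr3:52102550-52102699: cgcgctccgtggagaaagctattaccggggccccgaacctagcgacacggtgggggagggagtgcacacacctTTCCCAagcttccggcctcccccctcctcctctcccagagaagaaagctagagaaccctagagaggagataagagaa
Maml3 intron 1 far from the start, chr3:51963535-51963684: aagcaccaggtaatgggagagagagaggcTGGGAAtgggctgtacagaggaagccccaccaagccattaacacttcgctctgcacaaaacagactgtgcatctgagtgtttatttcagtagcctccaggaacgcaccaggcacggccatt
Spen intron 1, chr4:141537232-141537381: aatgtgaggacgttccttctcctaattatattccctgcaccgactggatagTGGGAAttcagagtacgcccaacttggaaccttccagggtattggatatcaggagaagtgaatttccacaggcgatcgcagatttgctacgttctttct
Maml2 intron 1, repeat, chr9:13430980-13431129: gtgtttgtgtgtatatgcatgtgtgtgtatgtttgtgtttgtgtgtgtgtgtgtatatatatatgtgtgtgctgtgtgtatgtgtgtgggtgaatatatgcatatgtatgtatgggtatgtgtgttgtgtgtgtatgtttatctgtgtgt
The Rbpj, Spen and both Maml3 windows each held 1 core in sequence of mixed composition. The Maml2 window ran largely in repeated units of T and G and held no core.

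Rbpj, which encodes the DNA-binding partner of all Notch receptors, spans 191 kb on chromosome 5 (53466152 to 53657362, plus strand; all positions are on build mm10). Its 1 peak lay at 53567283 to 53567673 and had a deposited score of 664. The score is the authors' own value for each peak and its scale is not given in the sources used here, so it was used only to rank peaks within this list. This peak ranked 3945 of 5913, in the lower part of the list. It lay 11.4 kb from the nearest Rbpj start site, at 53555834, and 22.5 kb upstream of the start of the main transcript, defined as the one with the longest coding sequence. Of 12 annotated Rbpj transcripts 2 ran across it, both by an intron. The next protein-coding gene, Cckar, started 140 kb away. The single core of this peak, at 53567473 to 53567478, lay 3 bp from the peak's centre. A second peak, at 53397703 to 53398087 (score 582), lay 68.1 kb from an Rbpj start site and so outside the rule.

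**Figure D1:**
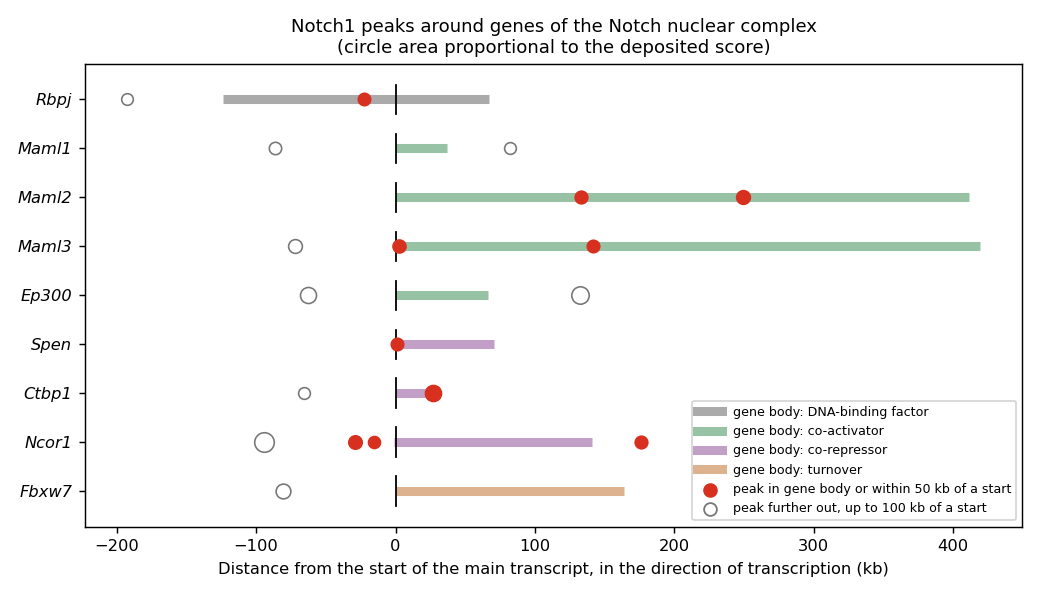
Peaks around the 9 genes, with the distance from the start of the main transcript in kb on the horizontal axis and 1 row per gene. Bars are gene bodies coloured by role, filled circles are the 11 peaks inside the rule, open circles are peaks up to 100 kb from a start site but outside it, and circle area follows the deposited score. Maml1, Ep300 and Fbxw7 have open circles only.

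The 3 Mastermind genes, whose proteins join Notch and RBPJ on DNA, differed in what they carried. Maml3 (chromosome 3, 51685907 to 52105076, minus strand) had a peak in its first intron, 2.27 kb from its start site. It lay at 52102480 to 52102809 and had a score of 727. The other Maml3 peak, at 51963535 to 51963921, lay in the same intron, 141 kb from that start site, and scored 668. Each held 1 RBPJ core. In the peak near the start, the core lay next to a match to an ETS factor motif (CCGGAAG or CCGGAAA), and that peak had the highest GC content of the 11, at 63.3%. Both lay far from other genes, since the next protein-coding start belonged to Foxo1, 166 kb from the first peak, and to Mgst2, 282 kb from the second.

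Maml2 (chromosome 9, 13297957 to 13709388, plus strand) had 2 peaks, both in the first intron of its main transcript. The peak at 13546885 to 13547163 scored 808 and lay 74.5 kb from the nearest Maml2 start site, an alternative one at 13621646. From the start of the main transcript it lay 249 kb away. It held no RBPJ core, but 1 match to a RUNX motif (TGTGGTT or TGCGGTT), the family of T cell factors that includes RUNX1, and 1 match to an E protein motif (CAGCTG or CAGGTG). The peak at 13430888 to 13431223, the repeat shown above, scored 694, lay 133 kb from a Maml2 start site and was closer to a start of Gm17571, at 15.5 kb. In this peak 60.4% of bases were soft-masked, which marks repeats and simple sequence in the assembly.

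Maml1 had no peak inside the rule. The closest one stood 81.6 kb from a Maml1 start, at 50209844 to 50210191 on chromosome 11 (score 594), and was 574 bp from a start of Sqstm1. On the other side the first peak lay 85.9 kb away over the start of Hnrnph1. Maml1 also had the shortest length searched, 101 kb against 465 kb for Maml2 and 469 kb for Maml3.

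Ep300, which encodes the acetyltransferase p300, had no peak inside the rule either. The nearest one lay 62.8 kb upstream on chromosome 15 (81522379 to 81522600), scored 1106 and was closer to a start of Rbx1, at 48.8 kb. Rbx1 encodes a RING subunit of the ubiquitin ligases that FBXW7 serves. On the other side, the first peak lay in an intron of Rangap1 and scored 1302. The 2 peaks that flank Ep300 both scored above the upper quartile of the list (904), and the 195 kb between them held none.

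Of the 3 co-repressor genes all had a peak. Spen (chromosome 4, 141467890 to 141538597, minus strand) encodes the large RNA-binding protein, also called SHARP or MINT, that links RBPJ to repressors. Its peak at 141537232 to 141537619 lay in the first intron, 0.978 kb from the start of the main transcript and 634 bp from another Spen start. It scored 667, which 34.8% of the list reached or stayed under, and had no soft-masked base. It held 1 RBPJ core in the longer form GTGGGAA and 1 E-box (CACGTG or CACGCG), the class of site that HES and MYC proteins bind. The next peaks lay 437 kb upstream and 168 kb downstream of the gene.

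Ctbp1 (chromosome 5, 33247723 to 33274994, minus strand), which encodes a dehydrogenase-like co-repressor, carried the 2 peaks of highest score in the set. They scored 1109 (33247778 to 33248011) and 948 (33248216 to 33248526) and were 204 bp apart. These peaks did not lie at the promoter of the full-length gene. Both overlapped the last exon of the main transcript, exon 9 of 9, and lay 27.0 and 26.5 kb from its start. The first lay wholly in the 3′ untranslated region (UTR), and the second covered 24 bp of coding sequence and 287 bp of UTR. They counted as near a start site, at 1239 and 724 bp, through a retained-intron transcript that begins at 33249250. With protein-coding transcripts alone the distance to the nearest peak was 21.1 kb. Neither peak held an RBPJ core, and the closest core lay 90 bp beyond the second.

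Ncor1 (chromosome 11, 62316426 to 62458541, minus strand), which encodes the scaffold that brings histone deacetylase 3 to repressed genes, had 3 peaks, of which 0 lay in its gene body. The 2 upstream peaks lay in an intron of the neighbouring gene Pigl, which is transcribed the other way. They were 14.3 kb (62472794 to 62473148, score 617) and 28.0 kb (62486511 to 62486801, score 774) from an Ncor1 start, and 14.2 and 27.9 kb from a Pigl start. The third, at 62280793 to 62281150 (score 684), lay 40.1 kb from an Ncor1 start but 225 bp from a start of Zswim7. None of the 3 was closer to a start of Ncor1 than to that of another protein-coding gene, and none held an RBPJ core. In the 2 upstream peaks 53.0 and 88.7% of bases were soft-masked, and 20.7 and 10.8% of their 32-base strings occurred more than once in the assembly, above the other 9 peaks.

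Fbxw7, the substrate-binding subunit of a ubiquitin ligase that acts on Notch and other proteins, had no peak. It spans 84815268 to 84979198 on chromosome 3 (plus strand), and its nearest peak lay 80.5 kb upstream at 84734470 to 84734720 (score 937), in an intron of Gm37240 and closer to a start of Tmem154. A stretch of 407 kb between the flanking peaks held none.

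**Figure D2:**
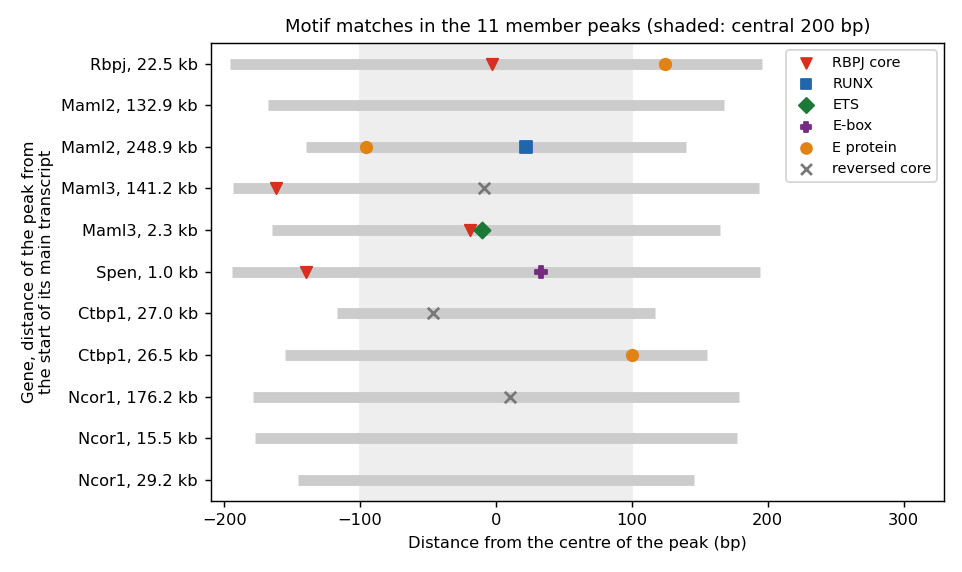
Motif matches on either strand in the 11 peaks, with the distance from the peak's centre in bp (plus strand to the right) on the horizontal axis and 1 grey bar per peak. RBPJ cores appear in 4 bars, and 2 of them lie in the shaded central 200 bp, in the Rbpj peak and the Maml3 peak near the start.

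The RBPJ core was present in 4 of the 11 peaks, beside 29.5% of all 5910 nuclear peaks and 26.2% of the 3345 peaks between 234 and 391 bp wide, the range of these 11. The longer forms GTGGGAA and GTGAGAA were found in 1 of the 11 peaks, beside 13.6% of all peaks. A pair of cores that face each other 15 to 17 bp apart, the arrangement on which Notch complexes can dimerise, was found in 0 of the 11 and in 1 of all peaks. E protein motifs were found in 3 of the 11 (33.4% of all peaks), and RUNX (11.5%), ETS (5.18%) and E-box (9.37%) motifs in 1 peak each. The AP-1 motif (TGAGTCA or TGACTCA) was found in 0, beside 6.6% of all peaks. The string AAGGGT, the core written backwards and used as a control, was found in 3 of the 11 peaks and in 15.9% of all.

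Scores of the 11 peaks ran from 617 at Ncor1 to 1109 at Ctbp1, with a median of 694, beside a median of 718 over all nuclear peaks. Of the 11 peaks 5 were at or above that median, namely both Ctbp1 peaks and 1 each at Maml2, Maml3 and Ncor1. Only the 2 Ctbp1 peaks reached the upper quartile. Rbpj and Spen had no peak at or above the median, and the nearest such peak lay 1881 kb from Rbpj and 3689 kb from Spen. The 4 peaks with a core scored between 664 and 727. The 2 Ctbp1 peaks with the highest scores held none. With 11 peaks this order is a description of the list and no relation was tested.

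**Figure D3:**
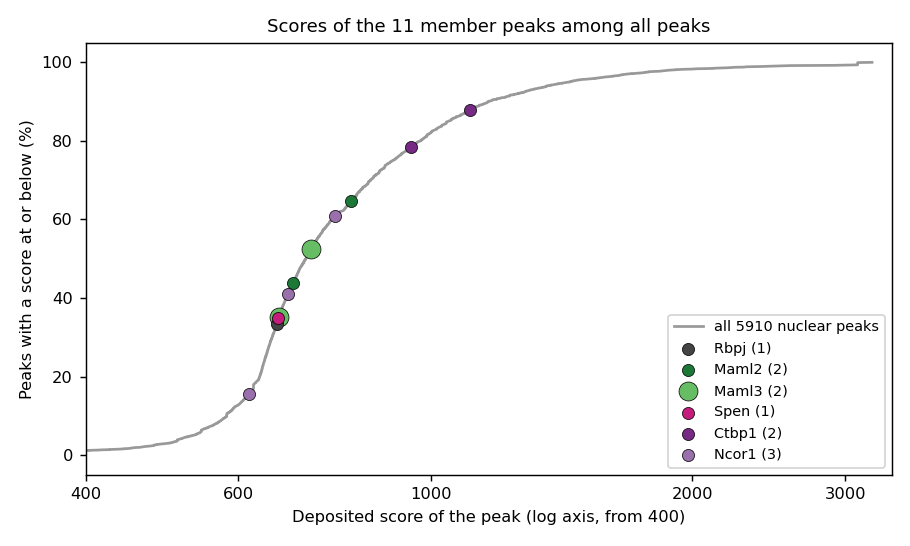
Share of the 5910 nuclear peaks with a score at or below each value (vertical axis, %), against the deposited score (log axis from 400, below which few peaks lie). Points are the 11 peaks coloured by gene, with the number of peaks in brackets and larger points for Maml3, and only the 2 Ctbp1 points lie above 75% on the curve.

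By kind of site, 7 of the 11 peaks lay in introns away from start sites (32.3% of all peaks), 3 lay within 1 kb of a protein-coding gene's start (19.8%), 1 lay on an exon (5.08%) and 0 were intergenic (42.8%). The search rule takes in gene bodies, so it favours introns over intergenic sequence. The 3 peaks near a start were those of Spen, the second Ctbp1 peak at its internal start, and the Zswim7 promoter peak. At least 50% of bases were soft-masked in 3 of the 11 peaks (1 at Maml2, 2 at Ncor1), beside 9.32% of all peaks. Without peaks that were at least 50% soft-masked, 8 peaks were left, the same 6 genes still had a peak, Maml2 and Ncor1 among them, and 4 peaks held a core. The other 8 peaks held no 32-base string that occurs elsewhere in the assembly.

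Within 5 kb of a start site, 3 of the 9 genes had a peak (Maml3, Spen and Ctbp1), beside 8.81% of all protein-coding genes. With starts of protein-coding transcripts alone Ctbp1 was lost and 2 did. By gene body alone 5 of the 9 did, all but Ncor1 of the 6, beside 11.6%. When a peak counted only for the gene with the nearest protein-coding start, 5 of the 9 genes and 7 of the 11 peaks remained, beside 15.2% of all genes. At least 2 peaks lay in the search interval of 4 genes (Maml2, Maml3, Ctbp1 and Ncor1), beside 9.55% of all genes. With all start sites, the shares within 5 kb, by gene body, by nearest start and for at least 2 peaks lay above those of all genes, but they rest on 9 genes, several of which are long, and were not tested.

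**Figure D4:**
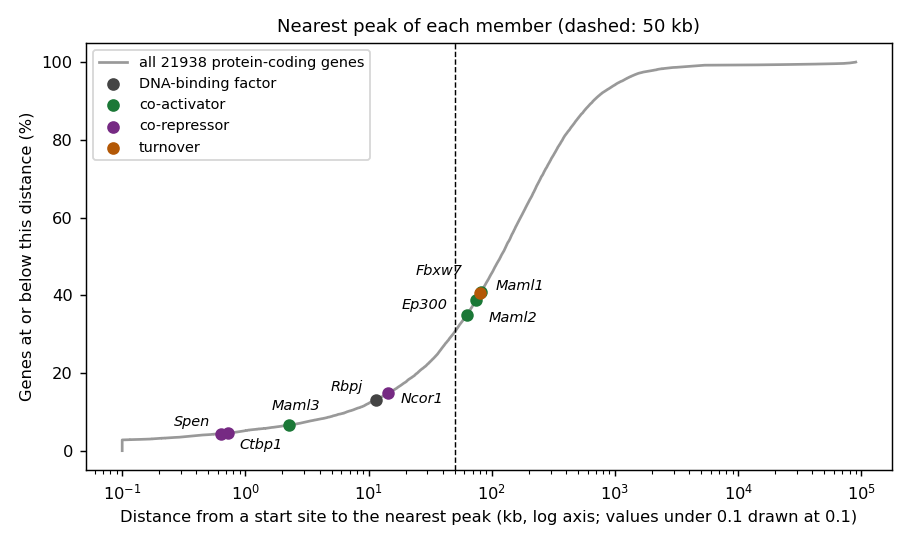
Share of the 21938 protein-coding genes (vertical axis, %) whose nearest peak lies at or below each distance from a start site (horizontal axis, kb, log scale). Points are the 9 genes coloured by role. Spen, Ctbp1, Maml3, Rbpj and Ncor1 lie left of the dashed line at 50 kb, and Ep300, Maml2, Fbxw7 and Maml1 lie between 62.8 and 81.6 kb.

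In order of distance to the nearest peak, the genes were Spen (634 bp), Ctbp1 (724 bp), Maml3 (2.27 kb), Rbpj (11.4 kb), Ncor1 (14.3 kb), Ep300 (62.8 kb), Maml2 (74.5 kb), Fbxw7 (80.5 kb) and Maml1 (81.6 kb). Their median was 14.3 kb, beside 118 kb over all protein-coding genes. Distances were to the nearest of all annotated start sites, which ranged from 2 at Maml1 to 23 at Ncor1 and were not matched to other genes. With starts of protein-coding transcripts alone the median of the 9 genes was 21.1 kb. Of all genes 4.41% had a peak as close as Spen or closer, 6.64% as close as Maml3, 13.1% as close as Rbpj and 40.8% as close as Maml1. By these distances the most distant of the 9 genes was nearer to a peak than the median gene. From the start of its main transcript alone, the nearest peak of Maml2 lay 133 kb away. The peaks on either side of the 50 kb limit were the Zswim7 promoter peak, assigned to Ncor1 at 40.1 kb, and the peak 62.8 kb from Ep300.

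**Figure D5:**
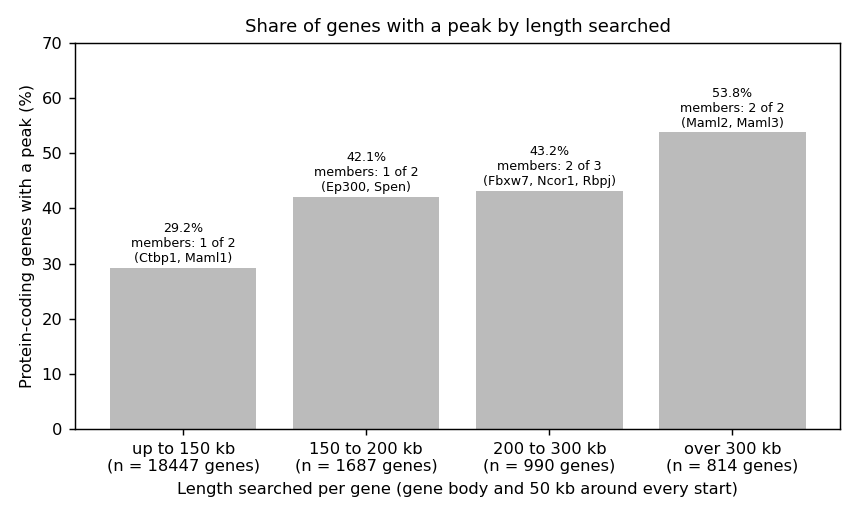
Share of protein-coding genes with a peak (bars from 0, %) in 4 classes of the length searched per gene, with the number of genes under each bar. Above each bar stand the share and how many of the 9 genes in that class had a peak. The share is 29.2% up to 150 kb and 53.8% over 300 kb.

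The length searched differed between genes and moved with the share of genes that had a peak. The median was 237 kb for the 9 genes and 104 kb for all protein-coding genes. Among genes searched over more than 300 kb 53.8% had a peak, and both genes of the set in that class, Maml2 and Maml3, did. Between 200 and 300 kb 43.2% did, with Rbpj and Ncor1 but not Fbxw7 among them. Between 150 and 200 kb the share was 42.1% (Spen had a peak, Ep300 did not), and up to 150 kb it was 29.2% (Ctbp1 had one, Maml1 did not). Over the 2.24 Mb searched in all, the set held 4.91 peaks per Mb, beside 2.17 over the nuclear genome. These densities cover unlike sequence, since the genome also holds sequence far from genes. The density over the intervals of all genes was not computed.

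Further genes of the same machinery were examined by the same rule. Of 39 genes 20 (51.3%) had a peak, beside the 31.7% of all genes. Within 5 kb of a start site 9 (23.1%) had one, beside 8.81%. The list was chosen with earlier results of these data known. The length searched for these 39 genes was not compared with that of all genes, and no test was made. The counts were 13 of 23 on the co-repressor side, 3 of 7 on the co-activator side, 4 of 8 among genes of Notch phosphorylation and turnover, and 0 of 1 for the paralog Rbpjl. The peak of highest score belonged to Cdk8, which encodes a kinase that phosphorylates the Notch domain ahead of its degradation. It lay in an intron of Cdk8, 3.09 kb from a start (chromosome 5, 146260883 to 146261415), held 1 RBPJ core and scored 3100, a value shared by 38 peaks that may be a ceiling of the scoring. Ikzf1, which encodes the zinc finger protein Ikaros, had 4 peaks, the highest at 1646 and with 2 cores, 39.3 kb from a start. Kdm1a, a histone demethylase gene, had an intronic peak 3.98 kb from a start (score 1461, 1 core). Tle1, a Groucho co-repressor gene, had a peak over a start site (1352, 0 cores).

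The other high scores on that list belonged to peaks nearer to other genes. The peak assigned to Gps2, a subunit gene of the NCoR complex, scored 1571 and covered a start of Eif5a. The peak assigned to Hdac3, the deacetylase gene of the same complex, scored 1419 and was nearest to Diaph1. With peaks counted only for the nearest protein-coding start, 11 of the 39 genes remained, beside 15.2% of all genes. Fbxw7's partners in its ligase, Skp1a and Rbx1, had 2 and 3 peaks, while Cul1 had its nearest peak 71.6 kb away. The Mastermind-related gene Mamld1 and the acetyltransferase gene Kat2b had none. Kat2a, another acetyltransferase gene, had a peak 12.3 kb from a start (score 821), nearer to a start of Dhx58. Crebbp, the close paralog of Ep300, had an intronic peak 7.24 kb from a start (score 744). The genes Skp1a, Rbx1, Cul1, Mamld1, Kat2b, Kat2a and Crebbp were singled out after their values were seen.

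Genes that mark the labelled cell type were checked in the same way, although a peak list holds no expression and cannot show which cells were present. Of 7 T cell genes (Cd3e, Cd3d, Cd3g, Cd247, Thy1, Ptprc and Il7r) 7 had a peak by the rule, beside 31.7% of all genes. Within 5 kb 2 of them (Cd247 and Thy1) had one, beside 8.81%. Cd3e, Cd3d and Cd3g shared 1 peak (score 469), which was nearest to a start of Ube4a, at 1214 bp. The Cd3e peak of highest score was nearest to Mpzl2, at 804 bp. At Cd247, Thy1, Ptprc and Il7r the peak of highest score was nearest to the gene itself. Of 3 genes each, 2 B cell genes, 1 myeloid gene (Csf1r) and 1 thymic epithelial gene (Epcam) had one, and 0 of these 9 had one within 5 kb. Trdc, the constant gene of the delta chain, is not annotated as protein-coding and was not counted.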

How the data were processed

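Reads were aligned to mm10, and Bowtie 1.0.0 and SAMtools 0.1.18 are named without settings, per the submitters' processing notes. Fixation used 0.5% formaldehyde for 5 min and the PCR ran for 18 cycles, per the labels' protocols. The authors deposited 1 list of 5913 peaks with a score each and no header, and the peak names start with MACS. Not given in the sources used here are the caller's version and settings, its control, how duplicates were treated, and depth. The 3 mitochondrial peaks were left out of shares of genes and of shares of peaks by motif, kind of site and soft-masking. Ranks, percentages of the list at or below a score and repeated scores were taken over all 5913 peaks.

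Start sites and gene bodies came from GENCODE M21 and sequence from the RefSeq copy of GRCm38, whose chromosome lengths hold every peak (0 past an end). Positions are counted from 1. Distances run from a start site to the nearest edge of a peak. Motifs were matched as exact strings on both strands, and a longer string can contain a core. Strings of 32 bases were looked up in the assembled chromosomes. Calls and motif matching were tested on simulated data. Python 3.11.15, pandas 2.3.3, numpy 2.4.6, pysam 0.24.0 and samtools 1.23.1 were used. All 9 genes were named, with the 6 of highest score on the wider list of 39 genes, and any gene that a peak of the set overlapped or lay nearest to. The genes and lists were chosen with earlier results of these data known. Alternatives changed the window, the overlap, the start sites, the score threshold, the repeat content, the assignment and the motif.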

Additional observations from a re-analysis of the deposited data

How the results depend on the processing

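The main counts were 6 of 9 genes with a peak, 11 peaks, 31.7% of all genes, 20 of 39 further genes, 4 peaks with a core and a median distance of 14.3 kb. Of 49 comparisons of a main count or median with an alternative, 31 stayed within 1.5 times and 18 did not. With a window of 20 kb 20.2% of all genes had a peak, and the same 6 genes of the set did. With 100 kb the set held 20 peaks and 9 of its 9 genes had one, Maml1, Ep300 and Fbxw7 included, beside 46.2% of all genes. By gene body alone 11.6% of all genes and 10 further genes had one. With the lower-scoring 50% of peaks left out, the set held 5 peaks of which 1 had a core, and the median distance was 74.5 kb. At this threshold 4 of the 9 genes and 15 of the 39 further genes had a peak, beside 19.3% of all genes. In the upper quartile 1 gene of the set (Ctbp1) kept 2 peaks with 0 cores, within 5 kb 1 gene did, and 10.8% of all genes and 11 further genes had one. With peaks given to the nearest start, the set held 7 peaks and 11 further genes had one. The share of all genes under this assignment, 15.2%, was not among the 49 comparisons. The core was found in the central 200 bp of 2 peaks and the longer forms in 1. Most alternatives leave fewer peaks or bases, and the cause of these changes was not tested. No paired analysis was possible because there was 1 Notch1 library and no peak list of the input. A peak list without reads, input or replicate gives no depth, so a gene without a peak is one at which none was called, and Notch1 binding below the caller's limit was not detectable.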

Other observations

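Peaks lay beyond the 50 kb limit beside several genes of the set, some of them scoring above the upper quartile of the list (904). The peak over the start of Ubb, a ubiquitin gene, lay 92.6 kb from Ncor1 and scored 1644, which 96.6% of the list reached or stayed under, more than any of the 3 peaks assigned to Ncor1. The peak in a Rangap1 intron stood at 92.9%. It lay 72.4 kb from the nearest Ep300 start, that of a retained-intron transcript, and 132 kb from the start of the main transcript. A peak 71.8 kb upstream of Maml3 (chromosome 3, 52176852 to 52177272, score 815) lay in introns of the lincRNA genes Gm37202 and Gm30074 and held a RUNX motif and no RBPJ core.

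Scores repeated often within the list. Of all 5913 peaks 65.1% shared their score to the last digit with another peak, as did 8 of the 11 peaks of the set. The peak nearest to Fbxw7 shared its score of 937 with the Rcor1 peak of the further genes and with others, 16 in all, of which 4 had the same width.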
